A study of Mus musculus with 6 samples.

Results

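The transcription factors that commit a retinal precursor to the photoreceptor fate were followed as 10 genes, Nrl, Crx, Nr2e3, Otx2, Neurod1, Rorb, Thrb, Prdm1, Esrrb and Mef2d, taken by symbol from files of 24346 gene rows. All 10 had a row in every library and passed the filter on low values. The libraries come from mice labelled as embryonic day 17.5 brain. In 3 libraries the genotype is a double knockout (DKO) of the microRNA genes miR-124a-1 and miR-124a-2. In the other 3, called control, it is miR-124a-1+/-, so every mouse carries at least 1 deleted copy of miR-124a-1 and none is labelled wild type. The labels give no strain, sex, litter or deletion boundary. Values are FPKM (fragment counts normalised for transcript length and for library size), as the authors deposited them.

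In the retina, Otx2 starts the photoreceptor programme in postmitotic precursors and turns on Crx, a related homeodomain factor that drives most photoreceptor genes. Rorb and Nrl then direct precursors to the rod fate, and Nr2e3, acting below Nrl, holds cone genes down, while Thrb is needed for the cone that makes the M opsin. Prdm1 keeps precursors from becoming bipolar cells. MiR-124 is a neuronal microRNA that is also abundant in photoreceptors.

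The labelled tissue was checked against marker genes. Summed over 8 rod markers, the libraries held 14610 to 15730 FPKM in DKO and 15260 to 16420 FPKM in control. Summed over 11 markers of cortical and other telencephalic neurons, they held 14.28 to 15.6 FPKM in DKO and 13.17 to 14.24 FPKM in control, with Emx1 and Emx2 listed at 0 in all 6 libraries. Of 9 markers of progenitors and dividing cells, 8 had a mean under 1 FPKM. Pineal cells also use Crx, Otx2 and Neurod1. Of 5 pineal markers, 3 averaged under 1 FPKM. Among these were Aanat and Asmt, which makes melatonin and was listed at 0 in all libraries. Tph1 averaged 1.18 FPKM, and Gngt1, which is also among the listed rod genes, averaged 929 FPKM. These levels go against the labelled brain tissue in both groups alike, and the near absence of progenitor markers beside high rod markers goes against the labelled embryonic age. Groups are therefore named here by their labels only. The host transcript of miR-124a-1, Mir124a-1hg, held 492 ± 24.5 FPKM in DKO and 480 ± 54.9 FPKM in control. That of miR-124a-2, 2610100L16Rik, held 88.5 ± 16.2 FPKM in DKO and 102 ± 18.9 FPKM in control (SD, n = 3 each for both). Both overlapped between groups, with log2 fold changes of 0.040 and -0.20 (limma, p adjusted by Benjamini-Hochberg, BH, = 0.942 and 0.804), so neither shows the deletion that the labels name. Whether the groups differ in miR-124 is therefore known from the labels alone. Depth relative to DKO replicate 1, read from the steps between low values, was 0.956 to 1.24. Rows of short RNAs took 6.36% of the summed FPKM in control replicate 3 and 1.76% to 3.13% in the other libraries, and removing these rows left 0 members past the threshold. Nothing says that libraries come from separate litters, so the tests measure the spread between these 6 libraries.

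Sequence is shown first for the factors at the top of the hierarchy, because OTX-family proteins such as Otx2 and Crx bind the word TAATCC and Otx2 acts on Crx. Promoters are from RefSeq on GRCm38.p6 and run from 250 bases before to 50 bases after the annotated start. All 10 genes matched, with 16 promoters among them. TAATCC or its reverse complement GGATTA lay in 3 of the 16, 1 each of Crx, Otx2 and Thrb, and in 7.06% of all 32851 promoters. The Crx promoter, on the minus strand at chr7:15879906-15880205, held 2 matches, which are in capitals and start 94 and 21 bases before the annotated start.

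Crx promoter: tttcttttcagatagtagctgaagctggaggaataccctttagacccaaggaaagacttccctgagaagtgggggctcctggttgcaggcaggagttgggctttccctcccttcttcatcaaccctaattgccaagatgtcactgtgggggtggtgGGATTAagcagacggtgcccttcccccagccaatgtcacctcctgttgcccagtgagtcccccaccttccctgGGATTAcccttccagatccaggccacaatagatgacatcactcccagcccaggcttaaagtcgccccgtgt

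The other matches lay in a promoter of Otx2 (chr14:48665303-48665332, minus strand) and one of Thrb (chr14:17660902-17660931, plus strand), and are shown with 12 bases on each side to compare their surroundings.

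Otx2: cgtgtgcccctcGGATTAtctcgttagttt

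Thrb: cgtgacgcggcgGGATTAactttgcatggc

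The same promoters were searched on both strands for the words of the other factors. CAGATG, a word bound by NeuroD-type proteins, was found in 2 of the 16 promoters (Nrl and Otx2) and in 17.2% of all promoters. TGCTGA is an end of the element bound by Maf-family proteins such as Nrl. It was found in 5 of the 16 (Otx2, Neurod1, Rorb and Mef2d), against 19.5% of all promoters. AGGTCA, the core word of nuclear receptors, was found in 1 of the 16 (Thrb), against 16.3% of all. GAAAGT, part of the word bound by Prdm1, was found in 2 of the 16 (Neurod1 and Esrrb), against 14.3%. The MEF2 site was found in 1 of the 16 (Otx2), against 3.19%. The matches of different words did not overlap in these promoters, and the MEF2 match reads on both strands. The Nrl promoter, on the minus strand at chr14:55524203-55524502, is shown because Nrl is the member whose values separated the groups. Its CAGATG is in capitals.

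Nrl promoter: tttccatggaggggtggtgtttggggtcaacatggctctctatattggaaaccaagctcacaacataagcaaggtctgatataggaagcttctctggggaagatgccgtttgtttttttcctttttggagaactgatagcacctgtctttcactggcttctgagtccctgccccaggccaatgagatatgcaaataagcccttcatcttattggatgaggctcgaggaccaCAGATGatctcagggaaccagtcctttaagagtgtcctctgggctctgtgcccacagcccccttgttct

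Because the study deleted genes of miR-124, the longest annotated 3' untranslated region of each member was searched for GTGCCTT, the 7-base word complementary to the seed (positions 2 to 8) of miR-124. The word was found once, in Prdm1, and in none of the other 9 members. It was found in 16.1% of 12167 tested genes with such a region. The Prdm1 site lies on the minus strand at chr10:44439592-44439620, beginning at base 59 of a region of 2490 bases, and is in capitals below.

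Prdm1 site: tggtgaatcaggGTGCCTTtagcaaattg

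The 10 factors spanned a 68.2-fold range of mean FPKM, in the same order of group means in DKO and control. Over all 6 libraries Nrl averaged 643.6 FPKM and was rank 38 of 24346 rows. Nr2e3 (525.7 FPKM, rank 63) and Crx (508.3 FPKM, rank 67) followed. The range of Nr2e3 overlapped those of Nrl and of Crx, with Nrl above Nr2e3 in 6 of 6 libraries and Nr2e3 above Crx in 4 of 6 libraries, while the ranges of Nrl and Crx lay apart. Neurod1 (161.5 FPKM), Otx2 (128.2 FPKM), Mef2d (99.1 FPKM) and Esrrb (90.81 FPKM) formed a middle tier, in which Mef2d was above Esrrb within each of the 6 libraries although the ranges of these neighbours overlapped. Rorb (36.5 FPKM), Thrb (16.33 FPKM) and Prdm1 (9.437 FPKM) were lowest, each with a range apart from its neighbours. The rod factors Nrl and Nr2e3 and their partner Crx thus stood highest, and Prdm1, which acts in newborn precursors, stood lowest.

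**Figure D1:**
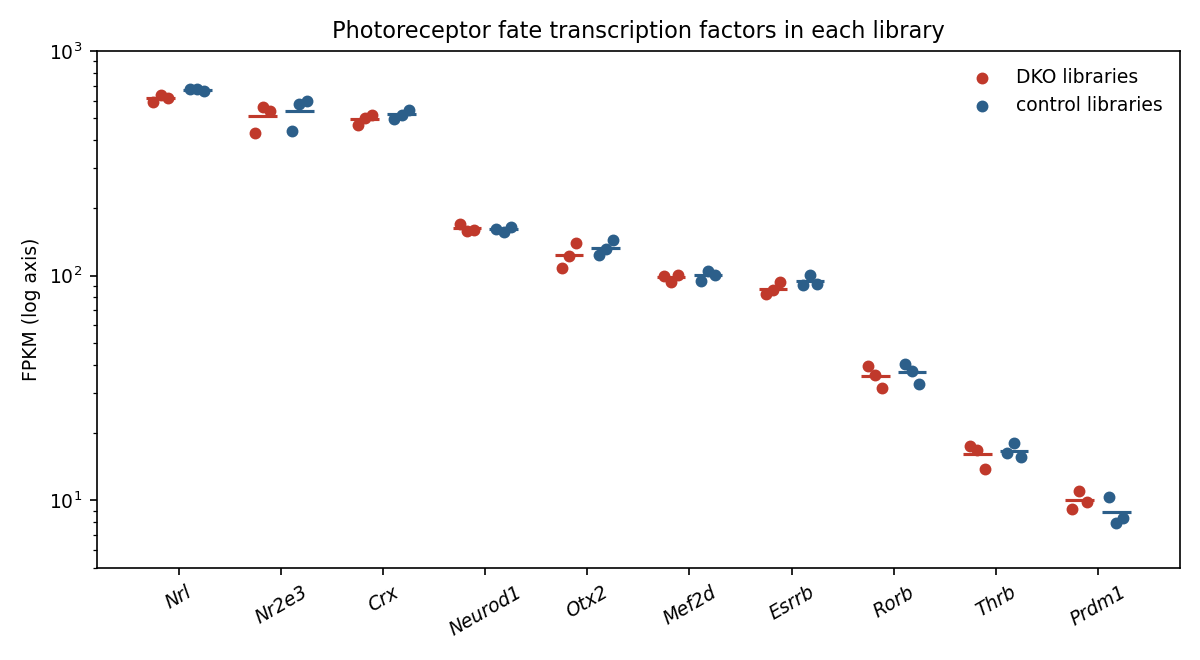
FPKM of the 10 factors on a log axis, with 1 point per library, DKO libraries in red left of control libraries in blue, and a bar at each group mean (n = 3 each). Nrl is the gene whose 3 DKO points (592.8 to 637.0 FPKM) lie below all 3 control points (659.9 to 678.6 FPKM).

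None of the 10 factors passed the threshold between DKO and control libraries, and their differences were small. The test was limma on log2(FPKM + 1), fitted to the 13215 rows that averaged 1 FPKM or more, with BH adjustment and a threshold of 0.05. Over all rows 3 passed (Dkk3, Usp47 and Cyfip2), or 0.0227%, so 0 of 10 is close to the background. Without adjustment, 1 of the 10 (Nrl) had p under 0.05, against 7.88% of all rows. Log2 fold changes were below 0 for 8 of the 10 and above 0 for 2, with a median of -0.064, beside -0.0016 for all tested rows, of which 50.5% were below 0. The ratio of group means, DKO over control, lay between 0.916 and 1.13. Each 95% confidence interval lay within a 1.5-fold change in either direction (a log2 of 0.585), the lowest limit being -0.397 for Nr2e3 and the highest 0.414 for Prdm1. In bulk RNA, fewer cells of a type and less RNA per cell cannot be told apart.

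**Figure D2:**
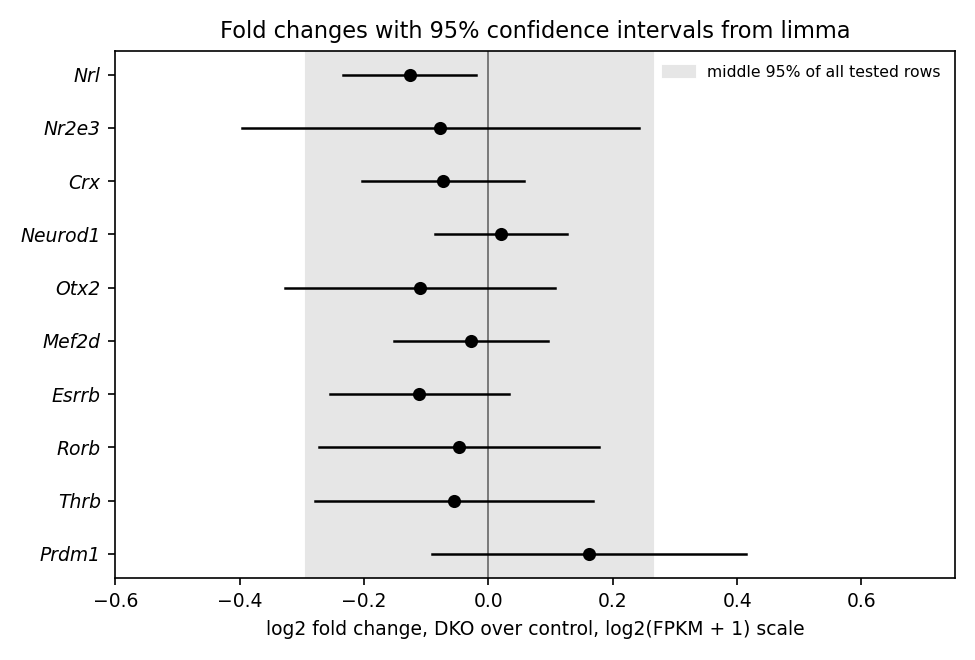
Log2 fold change of each factor, DKO over control, on the log2(FPKM + 1) scale, with its 95% confidence interval from limma (n = 3 each). The grey band holds the middle 95% of all 13215 tested rows, and each point lies inside it, from -0.13 for Nrl to 0.16 for Prdm1.

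Otx2 and Crx, the homeodomain factors at the head of the programme, had log2 fold changes of -0.11 and -0.072. Without single libraries these ran from -0.201 (without DKO replicate 3) to -0.021 (without DKO replicate 1) for Otx2, and from -0.103 (without control replicate 1) to -0.030 (without DKO replicate 1) for Crx. Otx2 (GRCm38 chromosome 14, 48657677 to 48673819, minus strand) measured 109, 122 and 140 FPKM in DKO replicates 1 to 3, against 124, 131 and 144 FPKM in control replicates 1 to 3. The groups overlapped, and the spread within each was as wide as the gap between them, at 124 ± 15.6 FPKM in DKO and 133 ± 10.2 FPKM in control (SD, n = 3 each; limma, BH-adjusted p = 0.815). Crx (chromosome 7, 15865947 to 15879968, minus strand) measured 467, 504 and 516 FPKM in DKO and 499, 518 and 546 FPKM in control. Its means were 496 ± 25.5 FPKM in DKO and 521 ± 23.7 FPKM in control (SD, n = 3 each; limma, BH-adjusted p = 0.790). DKO replicates 1 and 2 lay below every control library for Otx2, and DKO replicate 1 did for Crx, while the rest lay among the controls. The third member of the family, Otx1, a forebrain factor, was almost absent at 0.041 to 0.433 FPKM, so Crx and Otx2 made up nearly all OTX transcripts.

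The antisense neighbour of Otx2 had a log2 fold change of the opposite sign, though neither row passed. Otx2os1, a long noncoding RNA on the opposite strand of the Otx2 locus, measured 12.7, 11.6 and 9.23 FPKM in DKO and 7.80, 8.80 and 9.06 FPKM in control. Every DKO value lay above every control value, as in 6.96% of all tested rows. The row did not pass, at a log2 fold change of 0.34 ± 0.12 (SE; limma, BH-adjusted p = 0.546). This row was chosen after its values were seen. The library kit marks strand, but whether strand was used in quantification is not given in the sources used here, so reads of the overlapping ends may not be told apart.

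Neurod1, a basic helix-loop-helix factor that photoreceptors need for survival and cone opsin patterning, was the most even of the 10. It lies on chromosome 2 (79452521 to 79456751, minus strand) and measured 170, 158 and 160 FPKM in DKO, against 161, 156 and 164 FPKM in control. The groups overlapped, with DKO replicate 1 above every control value and control replicate 2 below every DKO value. The log2 fold change was 0.020 (limma, BH-adjusted p = 0.948). The coefficient of variation over the 6 libraries was 3.08%, where the median of all tested rows was 8.14%. The gene annotated over it on the same strand, Cerkl, a ceramide kinase-like gene of photoreceptors, measured 49.5, 42.7 and 50.6 FPKM in DKO and 29.5, 34.9 and 41.6 FPKM in control. Every DKO value of Cerkl lay above every control value, as in 6.96% of all tested rows. Its log2 fold change was 0.43, and it did not pass (limma, BH-adjusted p = 0.460). Its row was chosen after its values were seen, and reads of a shared stretch could be split between these genes.

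Nrl, the leucine zipper factor without which precursors become cones, was the 1 member whose groups did not overlap. It lies on chromosome 14 (55518978 to 55524981, minus strand) and measured 593, 637 and 617 FPKM in DKO and 676, 679 and 660 FPKM in control. The 3 DKO libraries all lay below the 3 control libraries, which also held for 6.95% of all tested rows. In a further 6.96% the 3 DKO libraries all lay above the 3 control libraries. Groups that do not overlap take in both shares, so 1 of 10 members is not above the background. The means of Nrl were 616 ± 22.1 FPKM in DKO and 672 ± 10.2 FPKM in control (SD, n = 3 each). On the log2 scale the difference was -0.13 ± 0.046 (SE), and its 95% confidence interval ran from -0.233 to -0.0192. The row did not pass over all genes (limma, BH-adjusted p = 0.590). Marker sums of some other retinal cells also lay apart between the groups. Over all tested rows 50.5% had a log2 fold change below 0. How often sums of such lists lie apart was not tested, so these gaps have no background share. Of 10 bipolar markers, 8 had a log2 fold change below 0, and the 10 summed to 837.7 to 866.9 FPKM in DKO and 910.8 to 953.6 FPKM in control. The highest, Pcp2, averaged 260 FPKM in DKO and 302 FPKM in control. Grm6 averaged 59.6 FPKM in DKO and 57.2 FPKM in control, and Prkca averaged 52.4 FPKM in both. Of 6 amacrine markers, 5 were above 0, and the 6 summed to 396.0 to 414.5 FPKM in DKO and 349.6 to 370.8 FPKM in control. The 1 below 0, Chat, averaged 6.57 FPKM in DKO and 6.85 FPKM in control. Of 7 ganglion cell markers, 6 were below 0, with sums of 581.6 to 603.4 FPKM in DKO and 630.0 to 681.0 FPKM in control. Of the highest of these, Nefl averaged 221 FPKM in DKO and 266 FPKM in control, but Sncg averaged 216 FPKM in DKO and 215 FPKM in control. Of 5 horizontal cell markers, 4 were below 0, with sums of 86.93 to 88.12 FPKM in DKO and 90.14 to 101.9 FPKM in control. Here Calb1 averaged 26.6 FPKM in DKO and 33.8 FPKM in control, but Prox1, the highest, averaged 52.4 FPKM in DKO and 52.7 FPKM in control. Such sums weigh the highest genes most, so a gap in a sum need not hold for every marker. The sums of the 7 Müller glia markers overlapped, at 1764 to 1892 FPKM in DKO and 1768 to 1849 FPKM in control, as did those of the rod markers. None of these markers passed the threshold, and none was listed at 0. Their part in the Nrl difference was not tested.

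Nr2e3, the orphan nuclear receptor that represses cone genes in rods, varied most among libraries. On chromosome 9 (59942771 to 59960659, minus strand), it measured 430, 562 and 540 FPKM in DKO, against 440, 581 and 600 FPKM in control. In each group the library numbered 1 was far below the other two, so the spread within groups, at 511 ± 70.9 FPKM in DKO and 540 ± 87.6 FPKM in control (SD, n = 3 each), exceeded the gap between them. Its log2 fold change of -0.077 had 95% confidence limits of -0.397 and 0.242 (limma, BH-adjusted p = 0.931), and it turned to 0.042 without DKO replicate 1 and to 0.0055 without control replicate 3. The coefficient of variation was 13.9% for Nr2e3, against 5.34% for Nrl and 5.12% for Crx. An antisense row annotated over Nr2e3, Gm7616, held 4.96 ± 2.19 FPKM in DKO and 4.18 ± 1.97 FPKM in control (SD, n = 3 each), far below Nr2e3 itself.

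Rorb, the retinoid-related orphan receptor that acts above Nrl, had its libraries in the reverse of the order seen for Crx and Otx2 in each group. On chromosome 19 (18930605 to 19111196, minus strand) it measured 39.8, 36.2 and 31.7 FPKM in DKO and 40.5, 37.7 and 33.1 FPKM in control. The library numbered 3 was lowest in each group, the groups overlapped, and the log2 fold change was -0.047 (limma, BH-adjusted p = 0.941). The order of the 3 numbers was the same in DKO and control for Crx, Otx2 and Rorb, that is 3 of the 10, and for 22.5% of all tested rows. The library numbered 1 was lowest in both groups for Crx, Nr2e3, Otx2 and Esrrb, that is 4 of the 10, and for 16.4% of all tested rows. What a number stands for is not given in the labels.

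**Figure D3:**
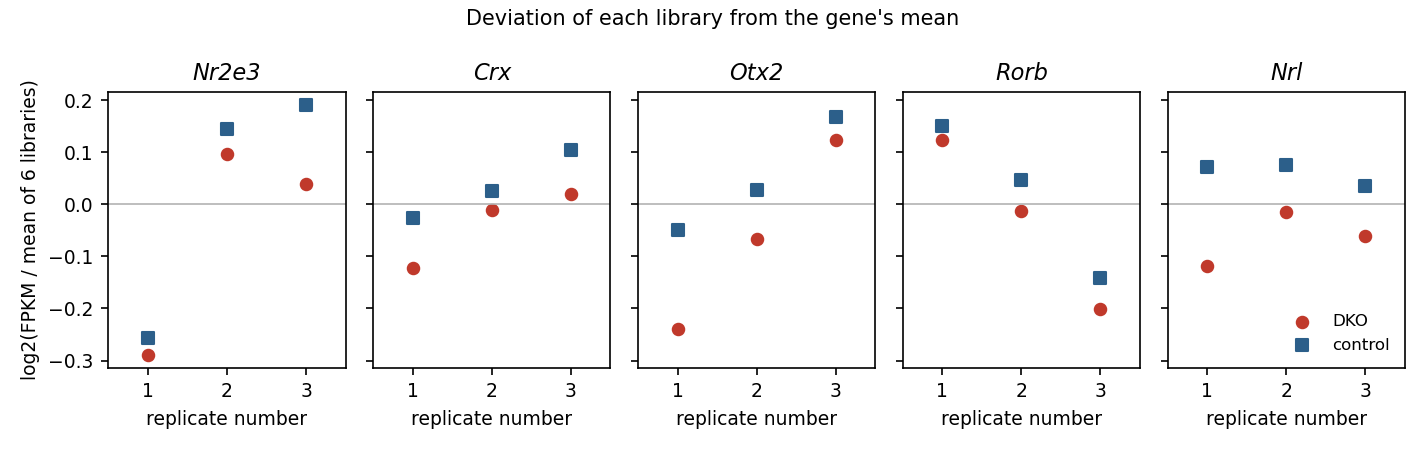
Log2 of each library's FPKM over the gene's mean of 6 libraries for Nr2e3, Crx, Otx2, Rorb and Nrl, by replicate number, with DKO as circles and control as squares. Nr2e3 is low in both libraries numbered 1 (430 FPKM in DKO and 440 FPKM in control), Rorb is low in both numbered 3, and in the Nrl panel all circles lie below all squares.

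The rod factors that act beside Nrl, Esrrb and Mef2d, showed no larger difference. Esrrb, an estrogen-related receptor needed for rod survival (chromosome 12, 86361117 to 86521628, plus strand), measured 82.5, 86.0 and 93.3 FPKM in DKO, against 90.7, 101 and 91.6 FPKM in control. Among the DKO libraries replicate 3 lay within the control range and the other two lay below it, and the log2 fold change came to -0.11 ± 0.062 (SE; limma, BH-adjusted p = 0.728). It was -0.160 without DKO replicate 3 and -0.064 without control replicate 2. Mef2d, a MADS-box factor that works with Crx at photoreceptor enhancers (chromosome 3, 88142372 to 88172086, plus strand), measured 99.9, 93.4 and 101 FPKM in DKO and 94.8, 105 and 101 FPKM in control. An antisense row over Mef2d, 1700113A16Rik, held 47.3 ± 3.08 FPKM in DKO and 47.2 ± 3.64 FPKM in control (SD, n = 3 each). Both overlapping rows, this one and that over Nr2e3, were chosen after their values were seen. The Mef2d groups overlapped, with DKO replicate 2 below every control value and control replicate 2 above every DKO value. The log2 fold change of Mef2d was -0.028 (limma, BH-adjusted p = 0.938).

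Thrb, the thyroid hormone receptor of cones, did not differ beyond its spread. On chromosome 14 (17660261 to 18038090, plus strand) it measured 17.4, 16.8 and 13.8 FPKM in DKO and 16.3, 18.1 and 15.5 FPKM in control. One DKO library, replicate 3, lay below all controls and the rest lay among them, and the log2 fold change, -0.055, had 95% confidence limits of -0.279 and 0.168 (limma, BH-adjusted p = 0.930). The sign turned without DKO replicate 3 (0.042) and without control replicate 2 (0.0023). The value sums all isoforms, so the cone isoform of Thrb was not measured by itself.

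Prdm1, the zinc finger repressor of bipolar fate, had the larger of the 2 fold changes above 0. It is also the 1 member with the miR-124 word, and whether that word plays a part here was not tested. On chromosome 10 (44437177 to 44528501, minus strand) it measured 9.13, 11.0 and 9.85 FPKM in DKO, against 10.3, 7.96 and 8.32 FPKM in control. Control replicates 2 and 3 lay below all DKO values and control replicate 1 lay among them, so the groups overlapped. The means were 10.01 ± 0.962 FPKM in DKO and 8.87 ± 1.28 FPKM in control (SD, n = 3 each), with a log2 fold change of 0.16 and 95% confidence limits of -0.0909 and 0.414 (limma, BH-adjusted p = 0.773). The log2 fold change was 0.26 without control replicate 1 (limma, BH-adjusted p = 0.63) and 0.095 without DKO replicate 2 or control replicate 2.

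The balance among the factors was compared within each library, where scaling between libraries cancels. Nrl stood over Crx by a log2 ratio of 0.34, 0.34 and 0.26 in DKO and 0.44, 0.39 and 0.27 in control, so Nrl was the more abundant in all 6 libraries. The group means were 0.31 ± 0.048 in DKO and 0.37 ± 0.085 in control (SD, n = 3 each), and the groups overlapped. The DKO minus control difference was -0.054 for Nrl over Crx (-0.101 without control replicate 3 and -0.019 without control replicate 1), -0.0047 for Nr2e3 over Crx, 0.014 for Thrb over Crx and -0.038 for Otx2 over Crx. A 2-sided exact permutation test gave p of 0.4, 0.9, 0.9 and 0.7 for these, and 0.9 for each after Benjamini-Hochberg adjustment over the 4 ratios. Since 3 libraries against 3 allow no p below 0.1 here, no ratio could have passed.

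Family relatives were compared with the members by FPKM, which is per length. For each member the highest relative is named, a choice made after the values were seen. Nrl made up 93.5% to 94.6% of the FPKM summed over Nrl and 6 other Maf-family genes in DKO and at least 94.5% in control, the next being the small Maf gene Mafg at 25.4 FPKM on average. Nr2e3 made up 94.0% to 96.1% in DKO and 94.3% to 95.8% in control of its sum with Nr2e1, Nr2f1, Nr2f2 and Nr2f6. Neurod1 shared its family with Neurod4, a factor of bipolar and amacrine precursors, at 78.5 FPKM, and Mef2d and Esrrb were each accompanied by relatives at lower levels, Mef2a at 30.4 FPKM and Esrrg at 32.7 FPKM.

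In 3 families a relative was as high as the member or higher. Rora, at 36.7 FPKM, was level with Rorb, whose share of the Ror family was 44.9% to 52.5% in DKO and 45.2% to 51.9% in control. Thra, the other thyroid hormone receptor, averaged 125 ± 1.32 FPKM in DKO and 115.8 ± 3.499 FPKM in control (SD, n = 3 each), and Thrb was 9.88% to 12.4% of their sum in DKO and 11.5% to 13.8% in control. Every DKO value of Thra lay above every control value, as in 6.96% of all tested rows. Its log2 fold change was 0.10, and it did not pass (limma, BH-adjusted p = 0.601). Prdm8, a bipolar and amacrine regulator, averaged 29.4 FPKM, and Prdm1 was 17.3% to 23.1% of its group in DKO and 16.3% to 17.8% in control. Among the 21 relatives tested, 9 lay above 0 and 12 below, with a median of -0.024, and 0 passed. All DKO values lay below control for 2 of them and above control for 1, against 6.95% and 6.96% of all tested rows. The relatives of smallest p were Prdm13 (log2 fold change -0.27, adjusted p = 0.427) and Nr2f6 (-0.33, adjusted p = 0.546), both by limma with BH adjustment.

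**Figure D4:**
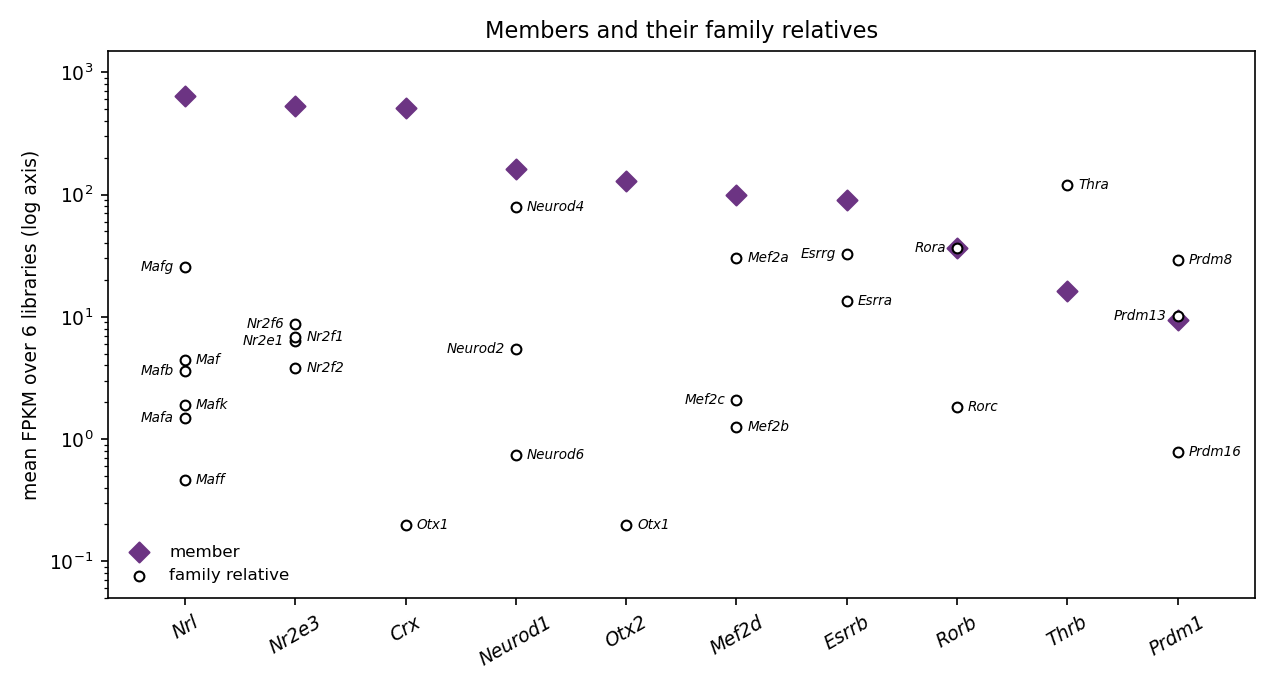
Mean FPKM over 6 libraries on a log axis for each member (diamonds) and its family relatives (open circles). Nrl, Nr2e3, Crx and Otx2 stand far above their relatives, Rora lies level with Rorb, and Thra and Prdm8 lie above Thrb and Prdm1.

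The genes that these factors switch on in rods were high and showed no call. All 34 listed rod genes were tested, 10 with a log2 fold change above 0 and 24 below, with a median of -0.023, beside -0.0016 for all tested rows. Unadjusted, 0 of the 34 had p under 0.05, against 7.88% of all rows. The rod arrestin gene Sag averaged 3169 ± 284 FPKM in DKO and 3403 ± 251 FPKM in control (SD, n = 3 each), with a log2 fold change of -0.10. The channel gene Cnga1 had the smallest p of the list, at a log2 fold change of -0.13 (limma, BH-adjusted p = 0.662).

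Cone genes, which Nrl and Nr2e3 hold down in rods, had log2 fold changes mostly below 0, and none passed. Among 14 tested, 1 lay above 0 and 13 below, and the median was -0.14, beside -0.0016 for all rows. Unadjusted, 5 had p under 0.05, and there were 5 whose DKO values all lay below control, against 7.88% and 6.95% of all rows. Kcne2, a potassium channel subunit, averaged 37.0 ± 0.643 FPKM in DKO and 45.0 ± 3.08 FPKM in control, and the S opsin gene Opn1sw averaged 102 ± 7.56 FPKM in DKO and 122 ± 5.02 FPKM in control (SD, n = 3 each; limma, BH-adjusted p = 0.308 and 0.378). Summed over the list, DKO libraries held 972.9 to 1072 FPKM and control libraries 1059 to 1181 FPKM, so the sums overlapped. A narrower list of 7 cone markers is wholly contained in the longer one, so it is not separate support. It leaves out the 1 gene above 0, the cone channel gene Cngb3, with a log2 fold change of 0.067. The sums of these 7 did not overlap, at 527.1 to 581.5 FPKM in DKO and 591.6 to 644.2 FPKM in control. All 7 had log2 fold changes below 0, with a median of -0.19. The highest of the longer list, Gnb3 and Pde6h, had log2 fold changes of -0.12 and -0.082.

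Other regulators and partners of photoreceptor fate followed no common direction. Of 31 listed, 27 were tested, 12 above 0 and 15 below, with a median of -0.033 and 0 past the threshold, while Olig2, a progenitor factor, was listed at 0 in every library. Samd11, a rod corepressor, averaged 256 ± 24.6 FPKM in DKO and 269 ± 33.2 FPKM in control (SD, n = 3 each). Tbx2, a T-box factor with a role in cone subtype choice in zebrafish, had a log2 fold change of -0.29 (limma, BH-adjusted p = 0.388), and Dio2, which activates thyroid hormone, had one of -0.31 (limma, BH-adjusted p = 0.507).

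**Figure D5:**
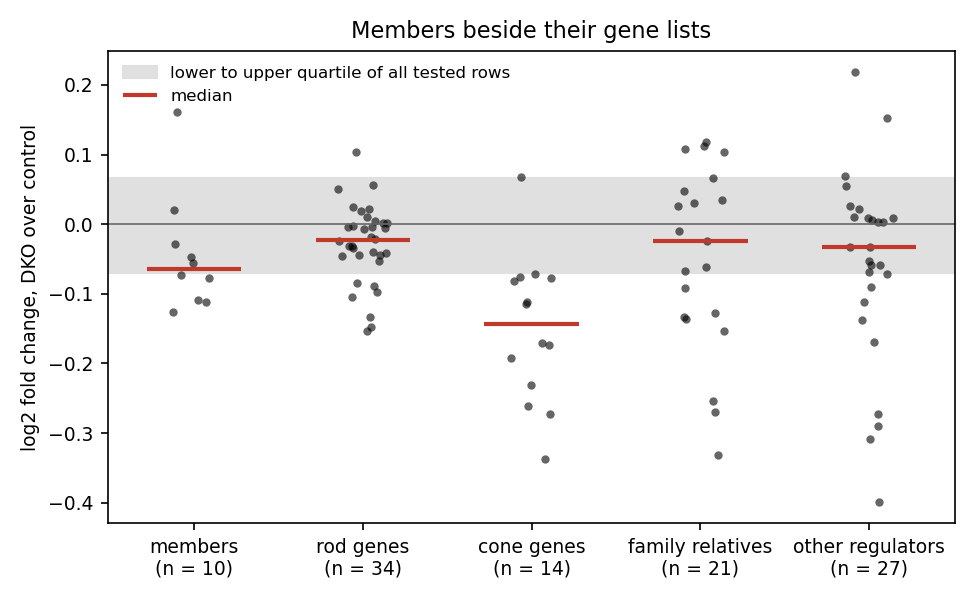
Log2 fold changes, DKO over control, of the 10 members and of tested genes of 4 lists, with 1 point per gene and a red bar at each median. The grey band spans the lower to the upper quartile of all tested rows (-0.070 to 0.067), and the cone median, at -0.14, lies below the band while the other medians lie inside it.

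The members lie on 8 chromosomes. Thrb, Otx2 and Nrl share chromosome 14 with Mir124a-1, at 46.55, 15.92 and 9.066 Mb from it, and Mef2d shares chromosome 3 with Mir124a-2, at 70.35 Mb. The rows whose deviations over the 6 libraries were most like those of Nrl, by the mean absolute difference in log2(FPKM + 1), were Fbxw8, Parn and Mcmbp (0.012, 0.0123 and 0.0128). For Crx they were Ctsl, Dstn and BC003331 (0.00979, 0.0124 and 0.0124). These are the closest of 13215 rows over 6 libraries, and some close rows would be found for most genes in such a search. Shared regulation was not tested.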

How the data were processed

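Per the labels' protocols, TRIzol was used for extraction and a stranded TruSeq mRNA kit for the libraries. The authors deposited 1 table of FPKM per library, per the file headers, where the DKO columns carry the letters CKO. The submitters' processing notes name TopHat2 2.1.1, Bowtie2, Cuffdiff 2.2.1 and the build mm10. Neither annotation nor scaling is given in them. Values were used as deposited, and limma 3.58.1 (R 4.3.3) was fitted with a trend on log2(FPKM + 1) over the 13215 rows averaging 1 FPKM or more. Such fold changes understate changes of low genes. The fit was tested on simulated data. Ratios, sequence searches and figures used Python 3.11.15, pandas 2.3.3 and SciPy 1.17.1, with GENCODE M21 (GRCm38, the assembly of mm10) and RefSeq. Total read numbers are not known, so precision rests on the 3 libraries of a group, whatever the level.

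The members and the gene lists were chosen with earlier results of these data known. All members are named with every library's value. From each list at most 4 genes are named: those past the threshold, otherwise the 2 with the highest mean and the 2 of smallest p. Some genes that this rule names are not reported here. Family relatives beyond it were named after their values were seen. So were Emx1, Emx2, Asmt, Aanat, Olig2, Cngb3, Grm6, Prkca and Chat. For Nrl and Crx the 3 rows most alike are named. Alternatives were other pseudocounts, filters, scalings, a block on replicate number, eBayes without a trend, removal of short RNA rows and leaving out each library.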

Additional observations from a re-analysis of the deposited data

How the results depend on the processing

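The count of members past the threshold was 0 in all 15 alternatives, with a lowest adjusted p of 0.474 (limma, Benjamini-Hochberg). The count over all rows, 3, was 1 with eBayes without a trend and 1 to 4 without single libraries, the 1 being without control replicate 2. Of 150 member values under alternatives, 140 kept their direction and 10 did not, each of them without a single library. These were Nr2e3 (-0.219 to 0.042), Neurod1 (-0.011 to 0.040), Rorb (-0.125 to 0.036), Thrb (-0.116 to 0.042) and Mef2d (-0.066 to 0.0070). The ratios with a sign that turned were Nr2e3 over Crx (-0.116 to 0.072), Thrb over Crx (-0.093 to 0.146) and Otx2 over Crx (-0.101 to 0.0093). Nrl stayed between -0.151 and -0.0995. Nrl, alone with an unadjusted limma p under 0.05, lost it in 6 of the 15: without a filter, without a trend, and without DKO replicate 1 or 3 or control replicate 1 or 2. Otx2 gained it with the block on replicate number, where 2 rows passed in place of 3. Otx2 and Esrrb gained it without DKO replicate 3, and Prdm1 without control replicate 1. Deviations from the group means correlated at 0.0718, 0.00634 and 0.101 between libraries of the same number, for numbers 1, 2 and 3. Between libraries of unlike number the correlations ran from -0.119 to 0.0363, below those of numbers 1 and 3. All were small, and they do not settle whether the numbers pair the libraries. The cause of these shifts was not tested.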
